A study of Mus musculus with 6 samples.

Results

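The clock output factors described here are 7 transcription regulators of the mouse: Dbp, Tef and Hlf, the PAR bZIP activators, Nfil3, the repressor that competes with them, Ciart, a repressor of the clock, and the Dec repressors Bhlhe40 and Bhlhe41. They are 7 of the 54429 gene symbols listed for each library, and all 7 passed the filter on low counts that left 20409 genes. The genes were chosen by their known roles and with earlier results of these libraries in view, among them that Ciart was higher in Tau than in WT and lower after UNC0642. The comparisons between groups are therefore a description of the members, not independent evidence about them.

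RNA was sequenced from whole prefrontal cortex (PFC) of 6-month-old mice in 3 groups of 2 libraries. WT mice, (C57BL/6 x C3H), received vehicle, which was saline with 0.18% DMSO. PS19 mice, labelled PS19(P301S) and called Tau here, carry human tau with a frontotemporal dementia mutation under the mouse prion protein promoter and received the same vehicle. Tau mice of the third group received UNC0642, an inhibitor of the histone methyltransferases EHMT1 and EHMT2, at 1 mg/kg by intraperitoneal injection on 3 consecutive days, and experiments began 24 h after the last injection. UNC0642 was not given to WT mice, so its values can be set only against Tau + vehicle and WT + vehicle. The clock time at which tissue was taken is not given in the sources used here. Differences between groups in clock genes therefore cannot be told apart from differences in the hour of collection. The comparisons of Tau with WT, of UNC0642 with Tau and of UNC0642 with WT share samples, and so their results are not independent of each other.

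In the mammalian clock, CLOCK and BMAL1 (encoded by Arntl) activate genes through E-boxes, and the Per and Cry proteins that they induce repress them in turn. Dbp, Tef and Hlf are output factors of this loop that activate genes through D-boxes, and Nfil3 (E4BP4) binds the same sites and represses. Ciart (Chrono), Bhlhe40 (Dec1) and Bhlhe41 (Dec2) act back on CLOCK-BMAL1 targets as repressors. In the brain the PAR bZIP factors are known for the control of pyridoxal kinase (Pdxk), and mice that lack Dbp, Tef and Hlf have seizures. Bhlhe40 is also an activity- and stress-responsive gene in neurons.

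Promoter windows were searched for the letters of the E-box and of related motifs near the start of the members. RefSeq windows of the GRCm38.p6 build, reaching from 250 bases before to 50 bases after each start, were given for 6 of the 7 genes, all but Bhlhe40, with 2 windows for Tef. The letters searched, on both strands, were CACGTG for the E-box, CACGTT for the E-prime-box, TTATGTAA or TTACGTAA for the D-box and TGACGTCA for the cAMP response element. The windows of Ciart, Bhlhe41 and Dbp are shown because the 3 genes were lower after UNC0642 and differ in their E-boxes. They are written 5′ to 3′ on the strand of the gene, over the 250 bases before the RefSeq start, with each E-box in capitals. The Ciart window is chr3:95882229-95882478 on the minus strand, the Bhlhe41 window chr6:145865421-145865670 on the minus strand and the Dbp window chr7:45704997-45705246 on the plus strand. RefSeq starts differ from the GENCODE bounds given for the genes below. The GENCODE bounds of Dbp (from 45705088), Bhlhe41 (to 145865558) and Ciart (to 95882251) reach into these windows. Part of each window thus lies inside the gene by GENCODE, and all distances are from the RefSeq start.
Ciart: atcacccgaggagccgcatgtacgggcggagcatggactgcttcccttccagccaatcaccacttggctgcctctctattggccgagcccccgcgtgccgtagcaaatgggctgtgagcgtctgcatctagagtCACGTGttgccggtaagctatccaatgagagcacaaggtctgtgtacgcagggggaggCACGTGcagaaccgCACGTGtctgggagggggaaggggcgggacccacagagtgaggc
Bhlhe41: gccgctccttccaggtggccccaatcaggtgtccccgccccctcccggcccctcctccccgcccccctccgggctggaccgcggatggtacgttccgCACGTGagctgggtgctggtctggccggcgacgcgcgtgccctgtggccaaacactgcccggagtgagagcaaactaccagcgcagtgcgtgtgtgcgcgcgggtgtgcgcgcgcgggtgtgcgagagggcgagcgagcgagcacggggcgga
Dbp: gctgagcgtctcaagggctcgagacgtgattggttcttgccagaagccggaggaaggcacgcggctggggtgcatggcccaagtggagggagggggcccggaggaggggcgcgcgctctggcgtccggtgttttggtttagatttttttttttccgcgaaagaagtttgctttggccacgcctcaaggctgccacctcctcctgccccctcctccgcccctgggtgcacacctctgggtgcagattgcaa

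Ciart held 3 E-boxes, beginning 116, 58 and 44 bases before its start. Of the 32851 windows of all genes, 7.15% held an E-box and 29 windows (0.0883%) held 3 or more. Bhlhe41 held 1 E-box, 153 bases before its start, and each Tef window held 1, at 127 and 138 bases. Both Tef windows lie inside Tef as GENCODE bounds it (chr15:81802421-81826863), and the Nfil3 window lies partly inside Nfil3. The Dbp and Nfil3 windows matched none of these letters, which says nothing about sites elsewhere in either gene. Hlf held 1 cAMP response element, 9 bases before its start, a motif found in 1.79% of all windows. None of the 6 members with a window held an E-prime-box or a D-box in it, which occurred in 4.68% and 1.06% of all windows. A match is a description of the letters in the window and not a binding site.

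**Figure D1:**
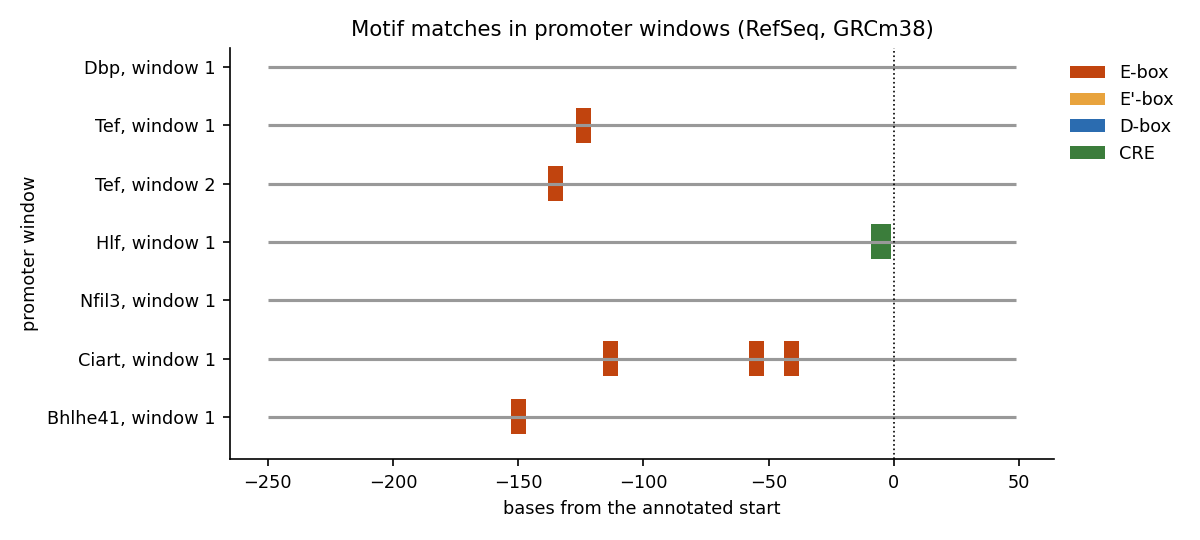
Positions of the searched motifs in the promoter windows of the members, with distance from the RefSeq start site in bases on the horizontal axis and 1 row per window. Ciart holds 3 E-boxes, Bhlhe41 and both Tef windows hold 1 each, Hlf holds 1 cAMP response element, and Dbp and Nfil3 hold no match.

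The libraries held between 17005664 and 28972176 counts. Xist, the RNA of the inactive X chromosome, and the Y-linked gene Ddx3y gave a female pattern in both Tau + vehicle libraries, a male pattern in both UNC0642 libraries and 1 of each in WT. Sex and treatment therefore cannot be told apart between UNC0642 and Tau. The Tau + vehicle and female WT libraries were compared within 1 sex by leaving out WT replicate 1, and the UNC0642 and male WT libraries by leaving out WT replicate 2, which leaves the library labelled WT replicate 1 alone on the WT side. Prnp, whose promoter drives the transgene, was at 1652 CPM (read counts scaled to 1 common library total by the TMM method) in the library labelled WT replicate 1 and at 873 CPM in WT replicate 2, while the 4 Tau libraries were between 1470 and 1694 CPM. Mapt, the endogenous mouse tau gene, was at 576 and 449 CPM in WT and between 571 and 614 CPM in the Tau libraries. Because the library labelled WT replicate 1 stood at the Tau level of Prnp, each WT comparison of a called member is also given without it.

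Marker genes of cell types also differed between libraries. The 8 oligodendrocyte markers summed to 5423 CPM in Tau replicate 2 and to between 1431 and 2915 CPM in the other 5 libraries. The 8 striatal neuron markers summed to 253 CPM in Tau replicate 2 and to between 97.7 and 123 CPM elsewhere, and all 8 were higher in Tau than in WT while 7 were lower after UNC0642 than in Tau. Of the oligodendrocyte markers 3 were higher in Tau than in WT and 2 lower after UNC0642 than in Tau. The 8 cortical excitatory neuron markers, which check the labelled tissue, were all detected and summed to between 2291 and 2796 CPM, and none was called between Tau and WT. Of the other lists, 5 of 8 endothelial markers were lower in Tau than in WT, 1 of 8 astrocyte, 2 of 8 microglial and 1 of 6 inhibitory neuron markers were higher, and 1 of 7 tested meningeal fibroblast markers was lower. Between UNC0642 and Tau, 1 cortical excitatory (Tbr1), 1 inhibitory and 1 microglial marker were lower and 1 endothelial marker (Cldn5) was higher. Between UNC0642 and WT, 3 endothelial markers, 1 fibroblast marker and Tbr1 were lower, and 1 excitatory (Neurod6), 1 inhibitory and 1 microglial marker were higher. No astrocyte marker was called in either UNC0642 comparison, no striatal or oligodendrocyte marker was called between UNC0642 and WT, and neither of the 2 choroid plexus markers tested, of 5 listed, was called in any comparison. The part of these differences in the members' values was not tested, and in bulk tissue fewer cells of a type and less RNA per cell cannot be told apart.

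Between genes, levels were compared per kilobase of exon. In WT, Tef was highest at 49.7 CPM per kb, followed by Bhlhe40 at 21.3, Hlf at 18.2, Dbp at 12.5, Ciart at 5.48, Nfil3 at 4.14 and Bhlhe41 at 4.07 CPM per kb. Bhlhe40 and Hlf overlapped in the WT libraries, with 20.4 and 22.3 CPM per kb for Bhlhe40 and 16.0 and 20.5 for Hlf. Nfil3, at 4.14 CPM per kb in both WT libraries, lay close to Bhlhe41 at 4.02 and 4.11. In Tau the order was Tef, Bhlhe40, Hlf, Dbp, Ciart, Bhlhe41 and Nfil3, at 56.5, 35.6, 21.1, 14.5, 8.44, 4.86 and 4.09 CPM per kb. After UNC0642 it was Tef, Bhlhe40, Hlf, Dbp, Nfil3, Ciart and Bhlhe41, at 53.8, 34.9, 18.0, 6.74, 5.62, 4.57 and 3.49 CPM per kb, and the UNC0642 libraries of Dbp (5.84 and 7.65) and Nfil3 (5.90 and 5.33) overlapped. Over the 6 libraries the highest level was 2.63 times the lowest for Dbp, 2.16 times for Ciart, 1.90 times for Bhlhe40 and 1.24 times for Tef.

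**Figure D2:**
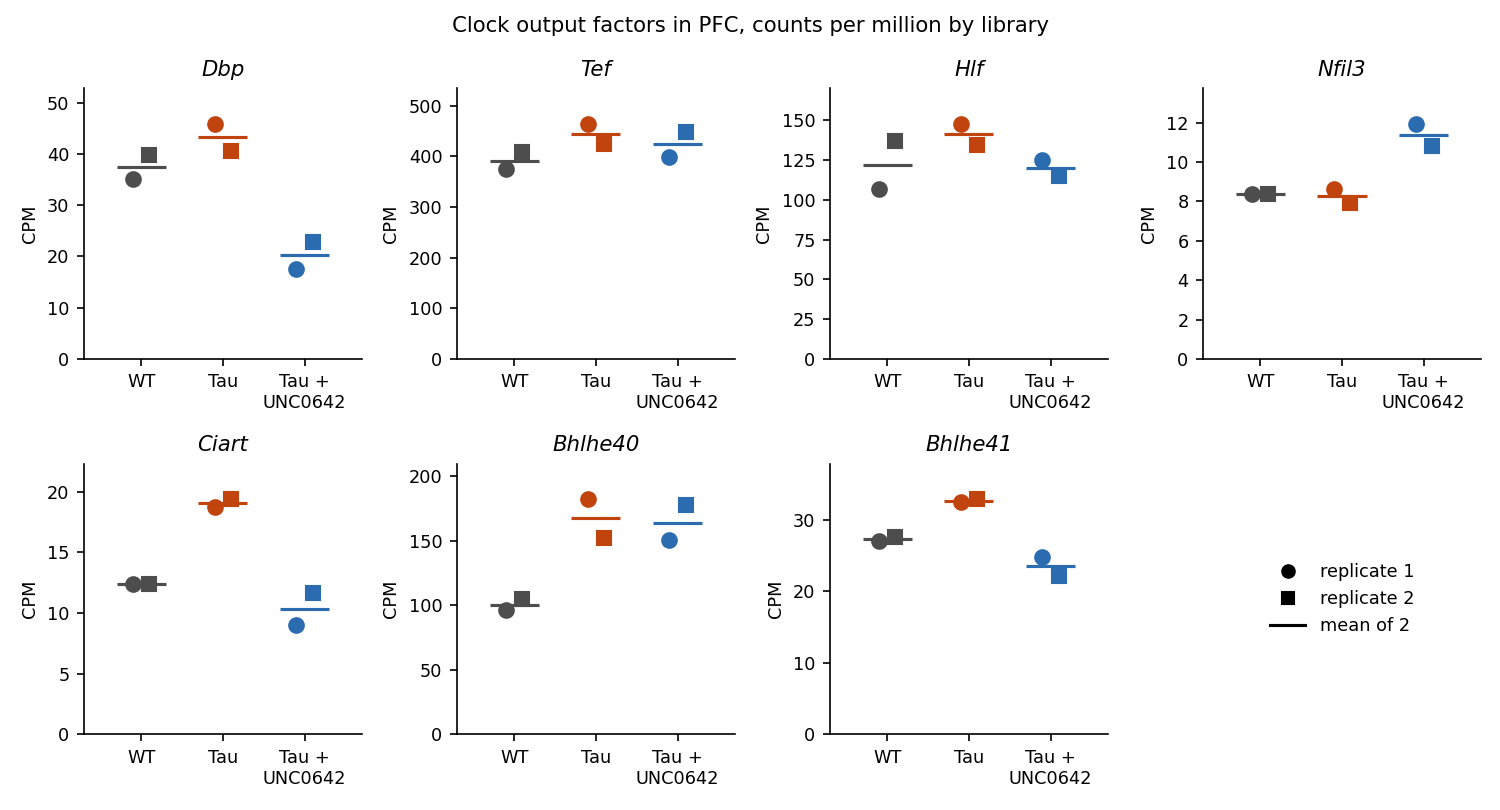
Level of each member in CPM in every library, with 1 panel per gene, points for the 2 libraries of WT, Tau and UNC0642 and a line at each group mean. Dbp stands lowest in the 2 UNC0642 libraries (17.5 and 22.9 CPM), Ciart highest in the 2 Tau libraries (18.7 and 19.4 CPM) and Bhlhe40 above WT in all 4 Tau and UNC0642 libraries (150.5 to 182 CPM).

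A gene was called where edgeR's quasi-likelihood test gave p below 0.05 and the fold change was at least 1.2, the study's own threshold. The methods call the 2 libraries of a group biological duplicates, while the labels name no individual mice, and p-values measure the spread between these libraries. With 2 libraries a group, groups that do not overlap are common and are not a test. Between UNC0642 and Tau, 5 of the 7 members did not overlap. Nor did 5 of 8 astrocyte and 7 of 8 microglial markers, of which 0 and 1 were called, while 1 of 8 oligodendrocyte markers did not. The share over all genes was not computed. Between Tau and WT, 2 members were higher, Ciart and Bhlhe40, and 0 were lower, where 3.72% of the 20409 genes were called higher and 6.1% lower. Between UNC0642 and Tau, 1 member was higher, Nfil3, and 3 were lower, Dbp, Ciart and Bhlhe41, where 3.73% of genes were called higher and 3.95% lower. Between UNC0642 and WT, Nfil3 and Bhlhe40 were higher and Dbp was lower, where 3.77% of genes were called higher and 5.69% lower. The median log2 difference of the 7 members was 0.21, -0.24 and -0.022 in these comparisons, against -0.00011, -0.0023 and -0.012 over all genes tested. Without Tau replicate 2, which held the most oligodendrocyte and striatal marker RNA, the log2 differences of UNC0642 from Tau were -1.18 for Dbp, -0.86 for Ciart and -0.47 for Bhlhe41, and those of Tau from WT were 0.60 for Ciart and 0.87 for Bhlhe40, all of them still called. The call of Nfil3 against Tau was lost (0.39) and Hlf was called lower (-0.31). As the genes were chosen with results known, these shares stand beside the counts and nothing is read from them.

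After Benjamini-Hochberg adjustment over all genes tested, 1 member (Bhlhe40) stayed below 0.05 between Tau and WT, 0 between UNC0642 and Tau and 2 (Dbp and Bhlhe40) between UNC0642 and WT by edgeR, where 0.157%, 0.0196% and 0.216% of genes did. DESeq2 gave 1, 2 and 2 members, with Dbp and Ciart between UNC0642 and Tau, and limma-voom gave 1, 0 and 1, each time Bhlhe40. Of the 7 members, 4 had an unadjusted edgeR p below 0.05 between UNC0642 and Tau.

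**Figure D3:**
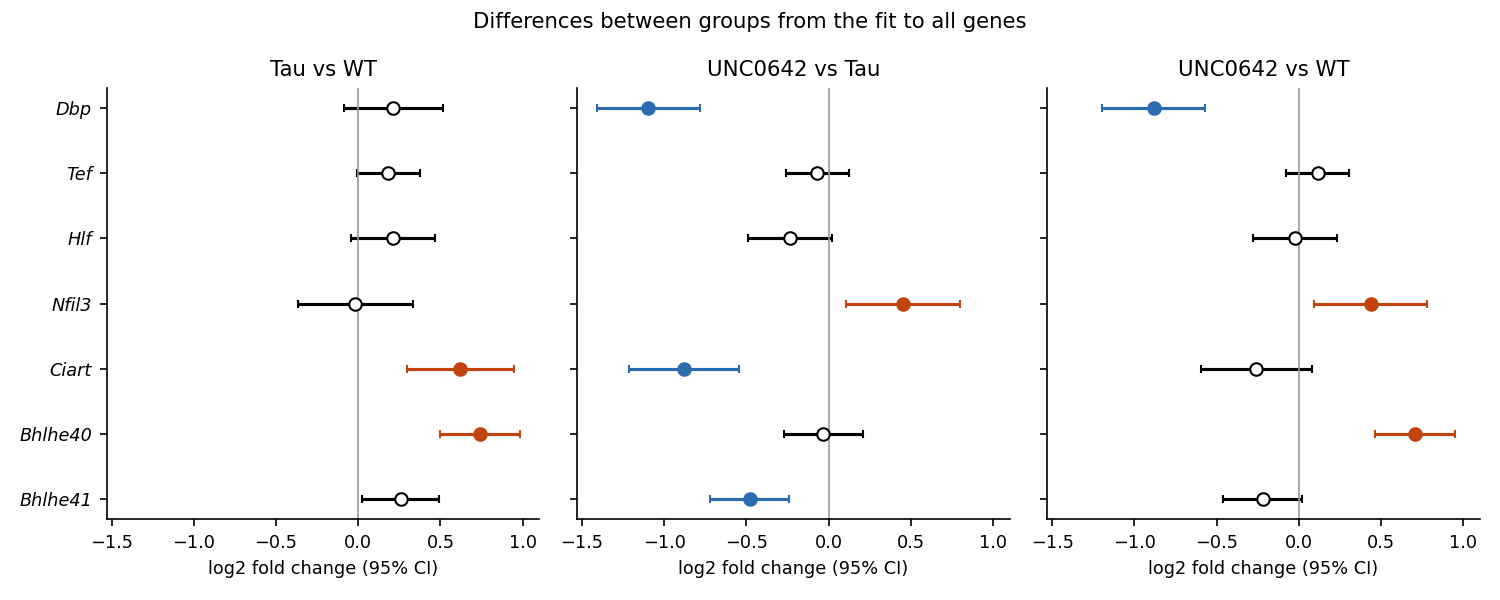
Log2 fold change of each member in the 3 comparisons, with points for the edgeR estimate and bars for the 95% confidence interval, orange where called higher, blue where called lower and open where not called. The intervals of Dbp lie below 0 in both UNC0642 comparisons, those of Bhlhe40 above 0 in both comparisons with WT, and those of Tef cross 0 in all 3.

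Dbp, the PAR bZIP factor with the strongest rhythm in most tissues, was lower in the UNC0642 libraries, whose hour of collection is not known. Its level was 35.0 and 39.7 CPM in WT, 45.9 and 40.6 in Tau and 17.5 and 22.9 after UNC0642. Both UNC0642 libraries lay below all WT and Tau libraries, and the Tau libraries lay just above WT. The group means were 37.4 ± 3.3 CPM in WT, 43.3 ± 3.7 in Tau and 20.2 ± 3.8 after UNC0642 (SD over 2 libraries). Dbp was 2.14-fold lower after UNC0642 than in Tau, with a log2 difference of -1.10 (95% CI -1.41 to -0.78), and edgeR's adjusted p was 0.0549 (2.54e-14 to 0.292 over 15 alternatives). Against WT it was 1.84-fold lower, with a log2 difference of -0.88 ± 0.14 (SE) and an adjusted p by edgeR of 0.0450. Between Tau and WT the log2 difference of 0.21 (95% CI -0.088 to 0.52) did not pass the test.

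The lower level of Dbp did not turn on 1 library. Within the male libraries, where the library labelled WT replicate 1 with its Tau-like Prnp level was the whole WT side, the log2 difference of UNC0642 from WT was -0.79. Without the library labelled WT replicate 1 it was -0.97, with an edgeR adjusted p of 0.0467, and over 15 alternatives the adjusted p ranged from 2.11e-09 to 0.238. With a term for sex-linked expression the UNC0642 to Tau difference was -0.92 (edgeR adjusted p = 0.292). That term is estimated from the WT libraries alone, including the library labelled WT replicate 1, so it cannot separate sex from treatment. Exon sequence of Dbp (chr7:45705088-45710203, plus strand) overlaps the span of Sphk2, a protein-coding gene on the opposite strand. Whether exons of the 2 genes overlap was not determined. The kit kept strand, but the strand setting of the counting is not given in the sources used here. How reads of the overlap were counted is therefore not known. Sphk2 had 406 and 471 counts in WT, 432 and 273 in Tau and 337 and 480 after UNC0642, not scaled for library depth. UNC0642 replicate 1 held more than Tau replicate 2, and UNC0642 replicate 2 more than Tau replicate 1, each from a smaller library total. The number of Dbp reads per Sphk2 read was 2.19 and 2.16 in WT, 2.97 and 2.60 in Tau and 0.875 and 1.08 after UNC0642. This ratio moves with either gene, and the part of Sphk2 in it was not tested.

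Tef, the most abundant PAR bZIP factor in these libraries, did not pass the test in any comparison. Its level was 375 and 407 CPM in WT, 464 and 424 in Tau and 399 and 447 after UNC0642. The UNC0642 libraries overlapped both other groups, and the Tau libraries lay above WT. The log2 difference of UNC0642 from Tau was -0.069 (95% CI -0.26 to 0.12), and that of Tau from WT was 0.18 (95% CI -0.0082 to 0.38). Tef lies at chr15:81802421-81826863 on the plus strand, and 1 antisense gene, Gm17597, with 10 to 28 counts per library, touches its exons.

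Hlf, the third PAR bZIP activator (chr11:90336536-90390895, minus strand), was at 107 and 137 CPM in WT, 148 and 134 in Tau and 125 and 115 after UNC0642. The WT libraries spanned the UNC0642 values and reached into the Tau range. The log2 difference was 0.21 (95% CI -0.042 to 0.47) between Tau and WT and -0.24 (95% CI -0.49 to 0.020) between UNC0642 and Tau, and neither passed the test. Single libraries decided this: Hlf was called higher in Tau without WT replicate 2 (log2 difference 0.41) and lower after UNC0642 without Tau replicate 2 (log2 difference -0.31).

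Within the PAR bZIP set, the balance of the factors differed between UNC0642 and the other groups. Dbp made up between 15.5% and 15.9% of the summed CPM per kb of Dbp, Tef and Hlf in the 4 WT and Tau libraries, and 7.75% and 9.36% in the UNC0642 libraries. Tef made up between 60.5% and 63.3% in WT and Tau and 67.4% and 69.6% after UNC0642. The UNC0642 libraries lay apart from the other 4 for both shares, WT and Tau overlapped, and with 2 libraries a group no test was run on them. The shares are parts of the same sum, so a lower share of Dbp raises the others. The 2 separations are therefore not independent, and the level of Tef itself was not called in any comparison.

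Nfil3, the D-box repressor, moved the other way from Dbp after UNC0642. It was at 8.40 CPM in both WT libraries, 8.65 and 7.90 in Tau and 11.96 and 10.8 after UNC0642, from raw counts of 138 to 245. Both UNC0642 libraries lay above the other 4. Nfil3 was 1.37-fold higher after UNC0642 than in Tau (log2 difference 0.45 ± 0.16 SE, edgeR adjusted p = 0.467) and 1.35-fold higher than in WT (0.44 ± 0.16 SE, edgeR adjusted p = 0.309). These 2 calls depended on single libraries and on the model. The call against Tau was lost without Tau replicate 2 (log2 difference 0.39) and without UNC0642 replicate 1 (0.38), and that against WT without UNC0642 replicate 1 (0.36). Both were lost with the term for sex-linked expression, at log2 differences of 0.45 and 0.44. Without the library labelled WT replicate 1 the difference from WT was 0.43 and was still called. Nfil3 lies at chr13:52967209-52981073 on the minus strand and overlaps no other annotated gene.

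The number of Dbp reads per Nfil3 read, activator over repressor, was 4.17 and 4.73 in WT and 5.31 and 5.14 in Tau. After UNC0642 it was 1.46 and 2.12. The UNC0642 libraries lay below the other 4, and the Tau libraries above WT. Dbp was called lower and Nfil3 higher after UNC0642 than in Tau, so the ratio restates those calls and adds no support to them. Reads are not scaled for exon length, so the ratio does not give relative amounts of the 2 RNAs. Dbp reads per Tef read followed the same order of groups only in part, at 0.0935 and 0.0974 in WT, 0.0989 and 0.0959 in Tau and 0.0437 and 0.0512 after UNC0642, where WT and Tau overlapped.

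**Figure D4:**
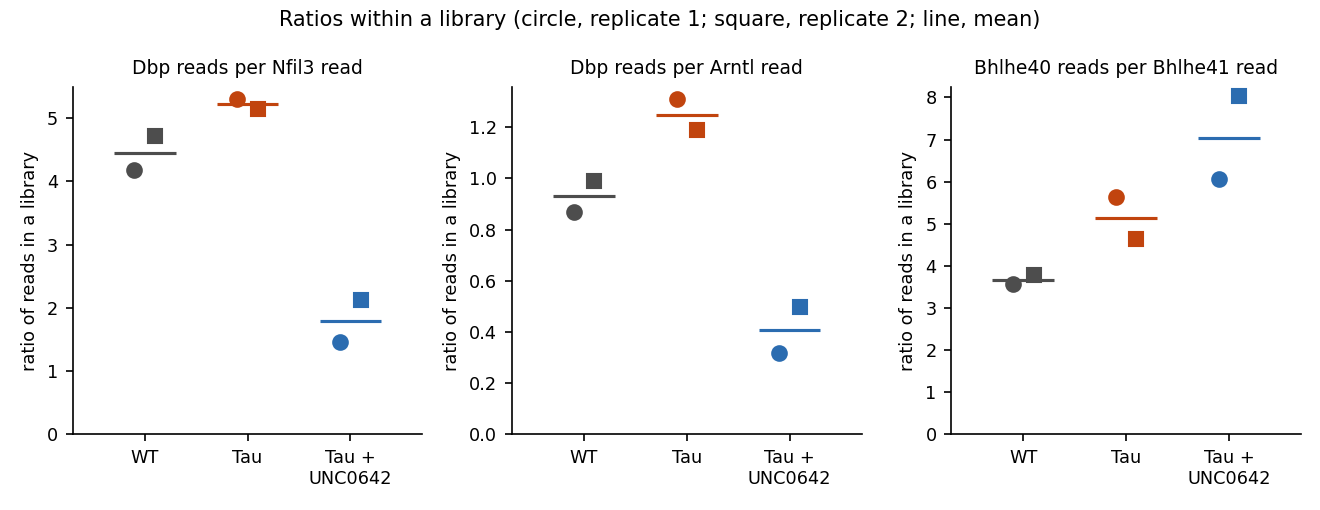
Ratios of reads between pairs of clock genes in every library, with a linear axis from 0, points for the 2 libraries and a line for the mean of each group, and 1 panel per ratio. The ratio of Dbp to Nfil3 lies between 4.17 and 5.31 in WT and Tau and at 1.46 and 2.12 after UNC0642, and that of Bhlhe40 to Bhlhe41 is lowest in WT (3.56 and 3.79).

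Ciart, a repressor that binds BMAL1, was higher in Tau and lower after UNC0642. Its level was 12.4 CPM in both WT libraries, 18.7 and 19.4 in Tau and 9.0 and 11.6 after UNC0642. The 3 groups did not overlap. Ciart was 1.54-fold higher in Tau than in WT (log2 difference 0.62, 95% CI 0.29 to 0.95, edgeR adjusted p = 0.196). After UNC0642 it was 1.84-fold lower than in Tau (log2 difference -0.88, 95% CI -1.21 to -0.54, edgeR adjusted p = 0.144). Without the library labelled WT replicate 1, which also leaves only female libraries, the Tau to WT difference was 0.62 with an edgeR adjusted p of 0.344, and over 15 alternatives the adjusted p ranged from 0.0141 to 0.397. Against WT the UNC0642 difference of -0.26 (95% CI -0.59 to 0.079) did not pass, and without UNC0642 replicate 2 it was -0.46 and was called. Ciart lies at chr3:95878503-95882251 on the minus strand, and the antisense gene C920021L13Rik that touches its exons had 7 to 23 counts against 152 to 524 for Ciart.

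Bhlhe40, or Dec1, was higher in both groups of Tau mice than in WT. Its level was 96.1 and 105 CPM in WT, 182 and 152 in Tau and 150.5 and 177 after UNC0642. All 4 Tau and UNC0642 libraries lay above both WT libraries, and those 2 groups overlapped each other. It was 1.67-fold higher in Tau than in WT (log2 difference 0.74, 95% CI 0.50 to 0.98, edgeR adjusted p = 0.0416) and 1.63-fold higher after UNC0642 than in WT (0.71, 95% CI 0.46 to 0.95, edgeR adjusted p = 0.0390). The UNC0642 to Tau difference was -0.031 (95% CI -0.27 to 0.21). Without the library labelled WT replicate 1 the differences from WT were 0.67 and 0.64, with edgeR adjusted p of 0.155 and 0.117. Over 15 alternatives each the adjusted p ranged from 1.64e-12 to 0.178 for Tau and from 1.50e-11 to 0.417 for UNC0642. Within the male libraries, against the library labelled WT replicate 1 alone, the UNC0642 to WT difference was 0.77. Bhlhe40 lies at chr6:108660629-108666925 on the plus strand, and an antisense gene on its exons, 0610040F04Rik, had 5 to 25 counts.

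Bhlhe41, or Dec2, differed from its paralog in this respect. It was at 27.0 and 27.7 CPM in WT, 32.4 and 32.9 in Tau and 24.9 and 22.1 after UNC0642. The 3 groups did not overlap, with Tau highest. Bhlhe41 was 1.39-fold lower after UNC0642 than in Tau (log2 difference -0.48, 95% CI -0.72 to -0.24, edgeR adjusted p = 0.327). Between Tau and WT the difference of 0.26 (95% CI 0.021 to 0.49) lay past the threshold on p, but its fold change of 1.195 was under 1.2 and it was not called. The number of Bhlhe40 reads per Bhlhe41 read was 3.56 and 3.79 in WT, 5.63 and 4.63 in Tau and 6.05 and 8.03 after UNC0642, so that WT lay below the other groups. Bhlhe41 lies at chr6:145858243-145865558 on the minus strand, and Gm43909, an annotated gene on the opposite strand that touches its exons, had 2 to 16 counts.

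Across the 19 genes of the core clock loop, a list fixed with earlier results known, 4 were higher and 0 lower in Tau than in WT. They were the repressors Per1 (log2 difference 0.75), Per2 (1.18) and Cry1 (0.38) and the nuclear receptor Nr1d2 (0.41). After UNC0642, Per1 (-0.47), Per2 (-0.58), Nr1d2 (-0.35) and Nr1d1 (-0.80) were lower than in Tau, and Arntl (0.54) and Arntl2 (0.72) were higher. Against WT, UNC0642 left Arntl (0.33), Per2 (0.60) and Cry1 (0.37) higher and Nr1d1 (-0.80) lower. The median log2 difference of the 19 genes was 0.085, -0.061 and 0.12 in the 3 comparisons. None of the 19 stayed below 0.05 after edgeR's adjustment between UNC0642 and Tau, where 6 had passed the call.

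Nr1d1 (Rev-erb alpha), which represses Arntl, stood in the libraries much as Dbp did. It was at 38.3 and 44.1 CPM in WT, 46.3 and 36.1 in Tau and 24.3 and 23.1 after UNC0642. Arntl was at 40.3 and 40.0 CPM in WT, 35.1 and 34.2 in Tau and 54.7 and 46.1 after UNC0642. Nr1d1 was lowest and Arntl highest in the UNC0642 libraries. The number of Dbp reads per Arntl read was 0.869 and 0.991 in WT, 1.31 and 1.19 in Tau and 0.319 and 0.497 after UNC0642, and the 3 groups did not overlap. As Dbp was called lower and Arntl higher after UNC0642 than in Tau, this ratio restates those calls. Per2, a target of the clock and of other signals, was at 20.4 and 31.8 CPM in WT, 56.5 and 61.5 in Tau and 40.3 and 38.8 after UNC0642.

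**Figure D5:**
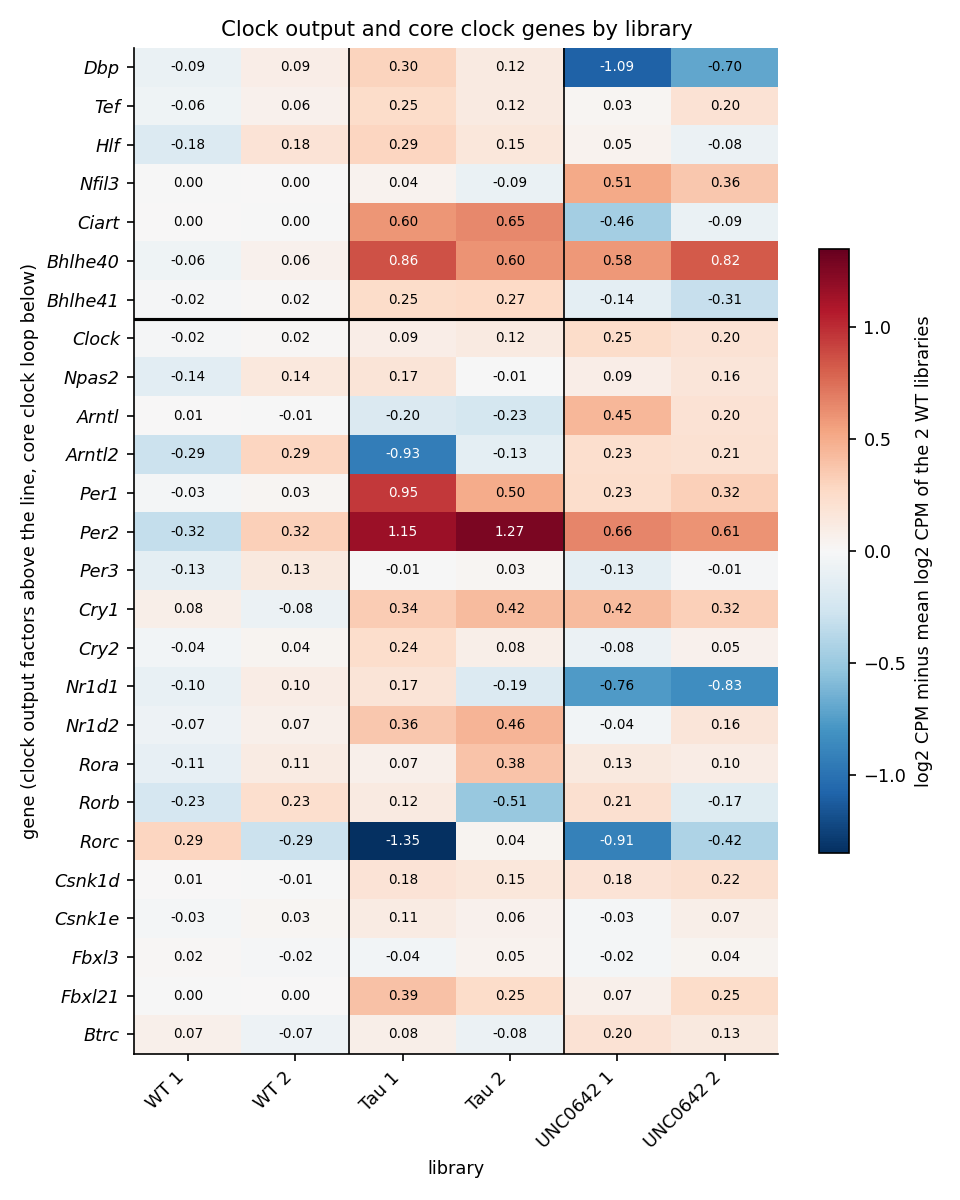
Level of the 7 members (above the line) and the 19 core clock genes (below it) in every library, as log2 CPM minus the mean log2 CPM of the 2 WT libraries. Dbp and Nr1d1 are lowest in the UNC0642 libraries, Ciart, Per1 and Per2 highest in the Tau libraries, and Bhlhe40 is raised in all 4 Tau and UNC0642 libraries.

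Genes whose library pattern came closest to each member were found among 12087 other genes with a mean of at least 5 CPM, by the root mean square difference of gene-centred log2 CPM over the 6 libraries. For Dbp they were Sf3a2 (0.18) and Nr1d1 (0.20), and Ciart was 26th in the order (0.27). For Bhlhe40 they were Fkbp5 (0.053) and Trib2 (0.068). Fkbp5, a co-chaperone of the glucocorticoid receptor and a target of it, was at 22.3 and 25.0 CPM in WT, 40.3 and 35.3 in Tau and 33.2 and 38.2 after UNC0642. The nearest to Ciart were Hdhd3 (0.15) and Gdpgp1 (0.15), to Bhlhe41 2310061I04Rik (0.047) and Taf4b (0.048), and to Nfil3 Gtf2f2 (0.062) and Eri2 (0.064). Tef lay nearest to Dda1 (0.016) and Diras1 (0.025) and Hlf to Rimkla (0.0095) and Ids (0.025), as members that vary little lie close to many genes. Likeness of pattern over 6 libraries says nothing of shared control.

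Among 8 clock-controlled genes, targets of CLOCK-BMAL1 or of its output factors, Por (log2 difference 0.28) and Tsc22d3 (1.02) were higher in Tau than in WT. Tsc22d3 is also counted among the glucocorticoid response genes described below. Usp2 was lower after UNC0642 than in Tau (-0.34) and WT (-0.42), and Tsc22d3 was higher than in WT (0.98). Pdxk, the PAR bZIP target, was at 81.8 and 85.7 CPM in WT, 97.3 and 88.6 in Tau and 83.3 and 85.5 after UNC0642, and was not called. Of the 5 C/EBP factors, relatives that share the bZIP fold, Cebpa was higher in Tau (0.44) and after UNC0642 (0.75) than in WT, and none was called between UNC0642 and Tau. Of the 6 Hes and Hey repressors, relatives of the Dec proteins, Hes5 (-1.03) and Heyl (-1.54) were lower in Tau than in WT, and Hes1 was higher after UNC0642 than in Tau (0.49). Heyl was at 4.10 CPM in the library labelled WT replicate 1, 1.25 in WT replicate 2 and 1.14 and 0.63 in Tau. Its difference from WT thus leaned on the library labelled WT replicate 1. Between UNC0642 and WT, 1 of the 6 was higher and 2 were lower.

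Bhlhe40 was also set beside 2 groups of genes that answer to hormones and neuronal activity, chosen with earlier results known. Of 8 glucocorticoid response genes, 7 were higher in Tau than in WT and 0 lower, among them Sgk1 (log2 difference 1.30), Plin4 (2.27), Tsc22d3 (1.02) and Fkbp5 (0.68), and all 8 were higher after UNC0642 than in WT. Between UNC0642 and Tau, Cdkn1a was higher (0.64) and Plin4 lower (-0.67). Their summed level was 266 and 263 CPM in WT, 442 and 553 in Tau and 400.3 and 485 after UNC0642. Of 11 activity-induced genes, Egr1, Egr2, Arc and Nr4a1 were higher and Ier2 lower in Tau than in WT. After UNC0642, Fos, Fosb, Junb, Egr2 and Arc were higher than in Tau, and 8 of the 11 were higher than in WT. The summed level of these 11 genes was 601 and 458 CPM in WT, 746 and 759 in Tau and 1021 and 1037 after UNC0642. Between Tau and WT the mean of Arc went from 203 to 351 CPM and that of Egr1 from 77.1 to 131 CPM, which made up most of the difference in the sum, while Fos, Fosb, Junb, Egr4, Npas4 and Dusp1 were not called. The part of either group in the level of Bhlhe40 was not tested.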

How the data were processed

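RNA was sequenced from 6 bulk samples of mouse PFC, 2 per group, and the authors deposited 1 table of whole-number read counts per gene symbol for each library. According to the submitters' processing notes and the methods, reads were aligned with TopHat2 to mm10 and counted with featureCounts, from a stranded kit. The counting's strand setting is not given in the sources used here. In 2 libraries 26 gene names had turned into dates; these were joined by position after the order of the other names was checked.

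Counts were fitted with edgeR 4.0.16 in R 4.3.3 (filterByExpr, TMM, quasi-likelihood, 1 mean per group, all 6 libraries, 3 residual degrees of freedom, biological coefficient of variation 12.3%). A call needed p below 0.05 and a fold change of at least 1.2. P-values were adjusted over the 20409 genes tested. Bars and intervals are at 95%. The fit was tested on simulated data first. Alternatives used DESeq2 1.42.0 and limma 3.58.1, other scalings and filters, a replicate block, a term for sex-linked expression, 2 groups alone and leaving out each library. Ratios, shares and motif searches used Python 3.11.15, and coordinates are from GENCODE M21 (GRCm38).

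The members and gene lists were chosen with earlier results of these data known. The genes named are the members, the called genes of the lists, the 2 genes nearest each member in pattern, and Xist, Ddx3y, Mapt and Prnp. Pdxk, the uncalled activity-induced genes and the annotated genes that overlap a member fall outside this rule and were chosen after their values were seen. The labels give replicate numbers but no shared animal, and same-numbered libraries did not deviate together.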

Additional observations from a re-analysis of the deposited data

How the results depend on the processing

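The 7 members were followed in 3 comparisons under 15 alternatives. Of 315 values of single genes, 296 kept their direction and their side of the threshold, 5 lost a call, 3 gained one and 11 turned direction. Dbp, Ciart, Bhlhe40 and Bhlhe41 kept every call they had in the main fit. The calls that were lost were all of Nfil3 and those gained were of Hlf and Ciart, with the values given above, and the cause was not tested beyond the library or term named there.

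Counts of called members fell where the rule was stricter by construction. With an adjusted p below 0.05 they were 1 between Tau and WT and 0 between UNC0642 and Tau, and at a fold change of at least 1.5 the count between UNC0642 and Tau was 2. Directions turned only in differences that were not called. Scaled by library size alone, Bhlhe40 between UNC0642 and Tau was at 0.0013. With the term for sex-linked expression, the UNC0642 to Tau differences were 0.051 for Tef, 0.13 for Hlf and 0.094 for Bhlhe40, and that of Hlf from WT was 0.17. Leaving out 1 library at a time, Hlf ranged from -0.19 to 0.17 between UNC0642 and WT, Bhlhe40 from -0.16 to 0.11 and Tef from -0.15 to 0.0094 between UNC0642 and Tau, and Nfil3 from -0.088 to 0.047 between Tau and WT.

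With the replicate block the counts of called members were 2, 4 and 3 and no call changed. Deviations of same-numbered libraries over all genes tested correlated at -0.034, -0.021 and -0.0033. These values cannot show whether such samples shared a day or hour of collection, which the labels do not give. Where a library was left out, the lone library of its group was assumed to vary like the others. With 2 libraries a group and 3 residual degrees of freedom, small differences such as those of Tef and Hlf could not be resolved, and the depth of Nfil3 and Ciart (138 and 152 counts at the lowest) limits their precision.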
